A study of Mus musculus with 4 samples.

Results

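Fos, Junb, Etv5 and Ccnd1 are 4 genes that the ERK kinase pathway is known to switch on, and they were followed here in mouse EML cells that carried mutant forms of the receptor KIT. The genes were taken as those probe sets whose only platform gene symbol is 1 of the 4. This gave 6 probe sets, 3 for Ccnd1 and 1 for each of the others, and 4 of the 6404 genes that the deposited table names. In RefSeq of GRCm38.p6, Fos (gene ID 14281, probe set 1423100_at) spans chr12:85473890-85477274 and Junb (16477, 1415899_at) spans chr8:84976909-84978748. Etv5 (104156, 1428142_at) spans chr16:22381313-22439570 and Ccnd1 (12443, probe sets 1417419_at, 1417420_at and 1448698_at) spans chr7:144929931-144939831. The genes were chosen with earlier results of these arrays known, and no test below is separate support for that choice.

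KIT is the receptor tyrosine kinase for stem cell factor (SCF). When it is activated, adaptor proteins and exchange factors load RAS with GTP, RAS recruits RAF, and RAF activates MEK and then ERK. ERK and its downstream kinases phosphorylate ternary complex factors at promoters of immediate early genes, which respond within minutes and usually only for a short time. Fos and Junb encode such early products: FOS and JUNB belong to the AP-1 family of basic leucine zipper factors, and FOS needs a JUN-type partner to bind DNA. Etv5 encodes an ETS transcription factor of the PEA3 group, widely used as a readout of sustained receptor tyrosine kinase signalling. Ccnd1 encodes cyclin D1, a delayed early product that binds CDK4 or CDK6 in G1. Activating KIT mutations are the hallmark of mastocytosis, a disease in which mast cells accumulate.

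EML is a lymphohematopoietic progenitor line that was made from mouse bone marrow with a dominant-negative retinoic acid receptor and is normally kept alive by SCF. Both lines profiled were EML cells transduced with a pLXSN retrovirus, 1 carrying the phosphotransferase domain mutant D816V and 1 the extracellular domain mutant Del417-419insY. Per the labels' protocols both were selected with geneticin, grown on without factor until autonomous, and sorted for KIT expression, and each was 1 transduced population. The 4 groups were D816V cells with SCF at 250 ng/mL for 48 h, D816V cells without SCF, Del417-419insY cells with SCF at 250 ng/mL for 48 h, and Del417-419insY cells without SCF. Each group was 1 Affymetrix array, no array of cells with normal KIT was analysed here, and no source used here gives the culture time of the cells kept without SCF. There are no replicates of any value, so precision is limited by having 4 arrays.

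The values are deposited RMA values, read as log2 and set for each probe set relative to a level that is not stated. Differences between arrays can therefore be read, but neither presence nor absence of a transcript, and no gene's level can be set against another gene's. For the same reason the labelled cell type could not be checked by levels of its markers: 6 of 12 progenitor markers were in the table, and Cd34, Ly6a and Flt3 were not. Array medians over all 10861 probe sets were -0.20 for D816V with SCF, -0.10 for D816V without SCF, -0.05 for Del417-419insY with SCF and -0.02 for Del417-419insY without SCF. Over all genes the median difference of D816V minus Del417-419insY was -0.14 with SCF and -0.08 without SCF, so each difference of a gene is to be read against these shifts. Median centring of the arrays moved them to 0.01 and 0.01.

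The sequences before the transcription start are shown first because Fos and Junb, both early AP-1 genes, differed between the lines in opposite directions. The RefSeq promoter table of GRCm38.p6 matched 3 of the 4 genes, and Ccnd1 did not match. The windows are the 250 bases before the start, on the strand of the gene: chr12:85473640-85473889 on the plus strand for Fos, chr8:84978749-84978998 on the minus strand for Junb, and chr16:22439571-22439820 on the minus strand for Etv5, the first of 2 starts listed. Capitals mark matches on either strand to the core of a cAMP response element, which is TGACG, to the CCAAT box known from many promoters, and to a TATA box, searched for here as TATAAA.
Fos: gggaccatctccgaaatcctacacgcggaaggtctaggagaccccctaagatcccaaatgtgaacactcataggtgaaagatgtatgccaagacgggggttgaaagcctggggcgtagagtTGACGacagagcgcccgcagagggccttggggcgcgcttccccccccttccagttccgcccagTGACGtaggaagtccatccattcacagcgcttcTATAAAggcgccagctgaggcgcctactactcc
Junb: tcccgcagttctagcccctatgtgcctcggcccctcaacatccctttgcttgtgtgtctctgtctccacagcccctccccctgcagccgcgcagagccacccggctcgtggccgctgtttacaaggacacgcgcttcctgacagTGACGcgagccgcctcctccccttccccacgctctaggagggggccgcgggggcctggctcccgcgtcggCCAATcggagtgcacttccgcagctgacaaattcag
Etv5: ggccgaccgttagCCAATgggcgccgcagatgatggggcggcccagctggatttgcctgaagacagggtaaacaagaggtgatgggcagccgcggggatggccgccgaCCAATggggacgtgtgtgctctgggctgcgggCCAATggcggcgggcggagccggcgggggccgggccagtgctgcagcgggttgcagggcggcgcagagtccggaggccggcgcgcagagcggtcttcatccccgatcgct
In the Fos window TGACG began at base -129 and at base -66 and TATAAA at base -33, counted from the start. Junb had TGACG at -106 and CCAAT at -36, and Etv5 had CCAAT at -237, -142 and -110. Of all 32536 windows of this length, 17.85% held the cAMP response element core, 33.81% the CCAAT box and 12.31% the TATA box. GGAA, the core of ETS sites, matched 5 times for Fos, 3 times for Junb and not at all for Etv5, and 93.43% of windows held it. TGANTCA, the AP-1 site, and the CArG box, the site of serum response factor, matched in none of the 3 windows and were held by 6.73% and 1.48% of all windows. Bases farther upstream were not searched, so a gene's lack of a match here does not speak of sites beyond the 250 bases. None of these motifs overlapped another in the windows shown. The windows were 58.4% G and C for Fos, 66.4% for Junb and 71.2% for Etv5, against a median of 52.4%.

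Comparing the mutants asks whether ERK target genes are expressed differently under a mutation in the kinase part of KIT and one outside the cell. The 4 genes did not differ as a group: Junb and Etv5 were higher in D816V cells, and Fos and Ccnd1 were lower. Averaged over both conditions Etv5 was 2.88-fold and Junb 2.55-fold higher, while Ccnd1 was 2.49-fold and Fos 2.37-fold lower. In each gene both D816V arrays lay on the same side of both Del417-419insY arrays. How many of all genes were separated in this way was not counted, so this is a description of the 4 genes only. The plot of deposited values by array shows these 4 patterns.

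**Figure D1:**
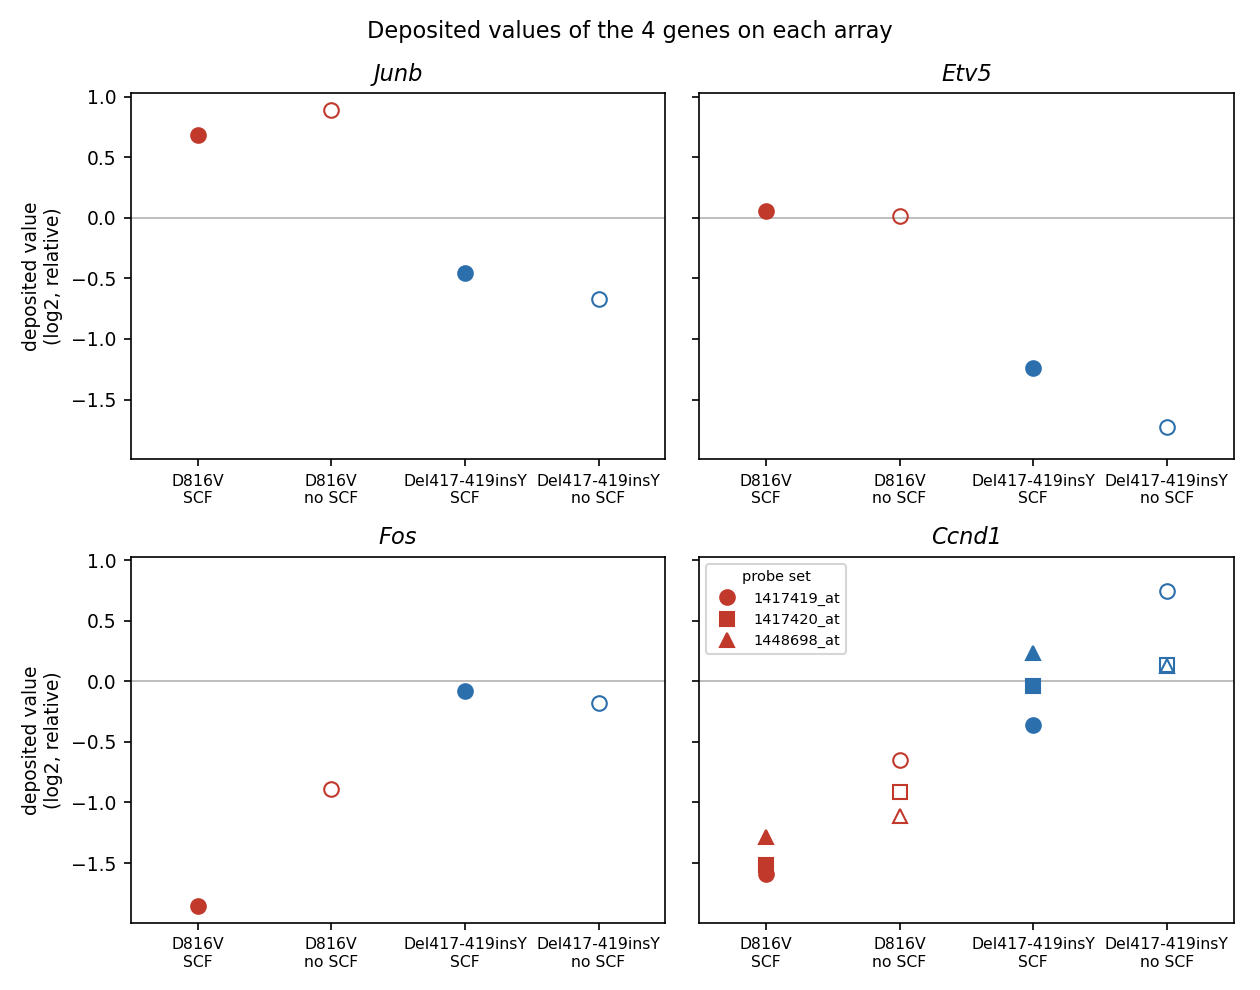
Deposited value (log2, relative to an unstated level of each probe set) on each of the 4 arrays, 1 point per probe set; red is D816V, blue is Del417-419insY, filled is with SCF and open without. Both D816V arrays lie above both Del417-419insY arrays for Junb and Etv5 and below them for Fos and for all 3 probe sets of Ccnd1. The share of all genes separated in this way was not counted, and heights compare arrays within a probe set only.

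Junb had values of 0.69 with SCF and 0.89 without SCF in D816V cells, and -0.46 with SCF and -0.67 without SCF in Del417-419insY cells. Both D816V arrays were above both Del417-419insY arrays, a separation that was not counted over all genes. The difference of D816V minus Del417-419insY was 1.14 with SCF and 1.56 without SCF, on the log2 scale. Over both conditions it was 1.35 (SE 0.15, limma adjusted p = 0.0030). JUNB is also known to restrain JUN-driven proliferation, but Jun itself was not in the table and was not analysed here.

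Etv5 had values of 0.06 with SCF and 0.02 without SCF in D816V cells, and -1.24 with SCF and -1.73 without SCF in Del417-419insY cells. The D816V arrays were nearly level with each other, and the lowest array was Del417-419insY without SCF. The difference between the lines was 1.30 with SCF and 1.75 without SCF. Over both conditions it was 1.52 (SE 0.15, limma adjusted p = 0.0023), the largest of the 4 genes.

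Ccnd1 had gene means of -1.46 with SCF and -0.89 without SCF in D816V cells, and -0.06 with SCF and 0.34 without SCF in Del417-419insY cells. The lines did not overlap in any of its 3 probe sets, and how common this is over all genes was not counted. The difference between the lines was -1.41 with SCF and -1.23 without SCF, and over both conditions -1.32 (SE 0.12, limma adjusted p = 0.0018). Its probe sets 1417419_at, 1417420_at and 1448698_at gave -1.32, -1.26 and -1.37 in that order, 3 readings of the same gene that were close to each other. After cyclic loess scaling the difference of Ccnd1 with SCF was -0.999, just under 2-fold.

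Fos had values of -1.86 with SCF and -0.89 without SCF in D816V cells, and -0.08 with SCF and -0.18 without SCF in Del417-419insY cells. The D816V array with SCF stood well below the others, and the Del417-419insY arrays were close together. The difference between the lines was -1.78 with SCF and -0.71 without SCF, 3.43-fold and 1.63-fold. After cyclic loess it was -1.17 with SCF and -0.45 without SCF. Over both conditions it was -1.24 (SE 0.26, limma adjusted p = 0.019), with the largest SE of the 4 genes because the conditions differed most. The probe set is the only one of Fos, so no second reading could check it.

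By size with SCF, 2 of the 4 genes were 2-fold or more higher in D816V cells, where 6.34% of all genes were, and 2 were 2-fold or more lower, where 7.42% were. Without SCF 2 were higher (6.29% of all genes) and 1, Ccnd1, was lower (4.18%). In the limma fit 2 of 4 were higher, beside 17.9% of all genes, and 2 of 4 were lower, beside 24.7%. That fit has no replicate array and takes the difference between the SCF responses of the lines for error, so no p-value here speaks of a repeated array or a repeated transduction. Scaling moved the balance over all genes, with 1147 higher and 1579 lower as deposited, and 1628 higher and 1263 lower after cyclic loess. After quantile normalization 1526 were higher and 1387 lower, and after median centring 1720 were higher and 1302 lower. The rescaled counts of the lists below are to be read against these.

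A difference as large as that of the 4 genes was not rare on these arrays. In either direction, 540 of 6404 genes differed by at least as much as Etv5 with SCF (8.43%), and 283 without SCF (4.42%). For Junb these shares were 10.8% with SCF and 5.28% without SCF, and for Ccnd1 they were 7.40% in both conditions. For Fos they were 4.90% with SCF and 18.5% without SCF. In the deposited values Fos was thus the farthest out of the 4 genes with SCF and the least far without SCF. Etv5 was farther out than Fos with SCF after cyclic loess, at 1.89 against -1.17, and after quantile normalization, at 1.52 against -1.41.

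**Figure D2:**
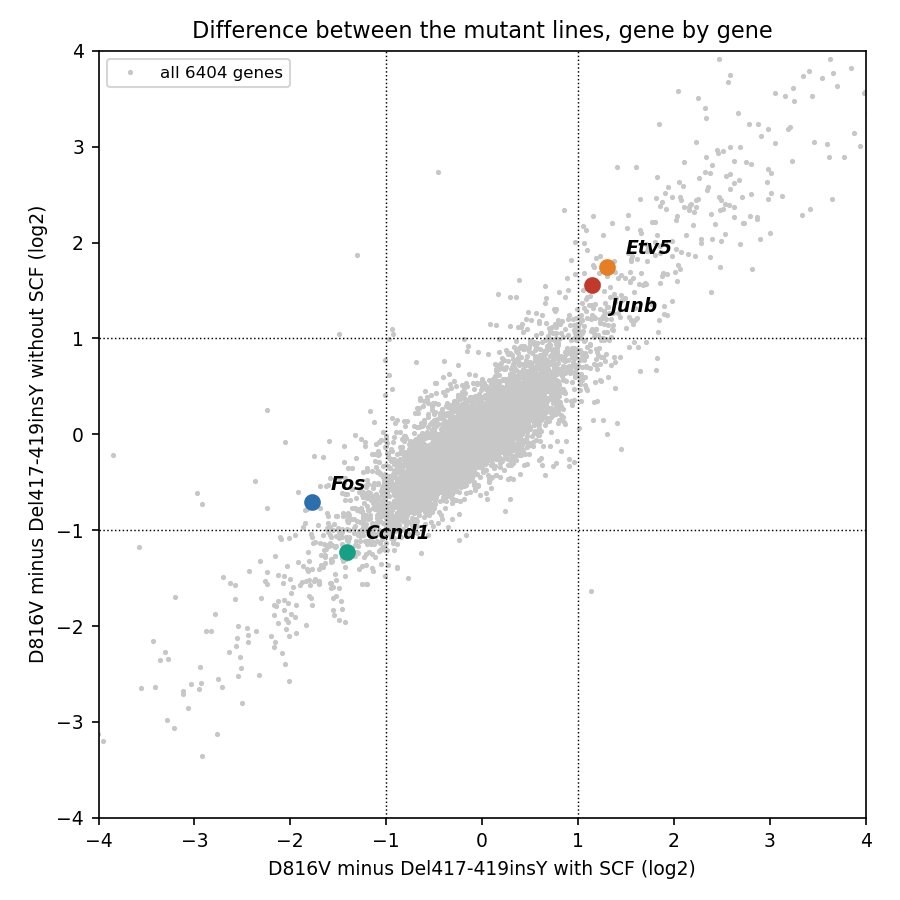
Difference of D816V minus Del417-419insY (log2) with SCF on the horizontal axis and without SCF on the vertical axis, 1 grey point per gene and the 4 genes in colour; dotted lines mark 2-fold, and 51 of 6404 genes lie outside the axes, which end at 4. Etv5 (1.30 and 1.75) and Junb (1.14 and 1.56) lie in the upper right, Ccnd1 (-1.41 and -1.23) and Fos (-1.78 and -0.71) in the lower left, with Fos off the diagonal.

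Differences between genes on the same arrays do not change when an array as a whole is shifted. The difference of Junb exceeded that of Fos by 2.92 with SCF and by 2.27 without SCF. That of Etv5 exceeded that of Ccnd1 by 2.71 with SCF and by 2.97 without SCF. Of the 2 higher genes, Etv5 exceeded Junb by 0.16 with SCF and 0.19 without SCF. The 2 lower genes were less close: the difference of Ccnd1 minus that of Fos was 0.37 with SCF and -0.52 without SCF. These pairs were set by the direction of the same differences, so that the pairs were unlike each other was given in advance.

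Of 7 genes of the AP-1 family in the table, out of 15 listed, 5 were higher in D816V cells, 1 was lower and 1 was not called, beside 17.9% higher and 24.7% lower of all genes. Fosl2, which encodes the FOS relative FRA2, was higher by 2.27 (SE 0.12, limma adjusted p = 0.00038), with 2.16 with SCF and 2.37 without SCF. Jund, a JUN-type partner, was higher by 1.09 (SE 0.12), Mafg, a small MAF factor, by 0.75, and Batf, a leucine zipper factor of lymphoid and myeloid cells, by 0.56. Fos was the 1 lower gene. Jdp2, a repressor that dimerizes with JUN proteins, was not called and stood at -0.97 with SCF and 0.62 without SCF. Its mean of -0.18 became 0.18 after cyclic loess. The list's median difference was 0.66 with SCF and 0.85 without SCF, beside -0.14 and -0.08 over all genes, and the counts were the same under the 3 scalings tried.

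Of 16 other immediate early genes in the table, out of 29 listed, 5 were higher in D816V cells, 1 was lower and 10 were not called, again beside 17.9% higher and 24.7% lower of all genes. Id1 and Id2, which encode inhibitors of basic helix-loop-helix factors, were higher by 2.21 and 1.24. Zfp36l1, which encodes a protein that destabilizes AU-rich mRNAs, was higher by 1.61, and the zinc finger factor Klf6 by 1.15. Egr1, a classical ERK target, was called higher at 0.87 as deposited and at 0.99 after median centring. After cyclic loess it was called lower at -0.57, and after quantile normalization it stood at 0.02 and was not called. Its direction thus depended on the scaling. Btg2, an antiproliferative early gene, was lower at -0.85. Myc stood at 0.05 and was not called. The list's median difference was 0.10 with SCF and 0.36 without SCF, and the counts depended on scaling. After median centring 8 genes were higher and 1 was lower, after quantile normalization 5 genes were higher with 2 lower, and cyclic loess left 6 higher with 3 lower. Of all 6404 genes, 1720 were higher and 1302 lower after median centring. The same counts were 1526 and 1387 after quantile normalization, and 1628 and 1263 after cyclic loess.

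Of 10 feedback inhibitors of ERK in the table, out of 21 listed, 2 were called higher in D816V cells, 1 was called lower and 7 were not called, where 17.9% of all genes were higher and 24.7% lower. None reached 2-fold in any comparison of 2 arrays. Errfi1, which encodes an inhibitor of EGF receptor family kinases, was higher by 0.66, with 0.96 with SCF and 0.36 without SCF. Dusp16, a phosphatase that prefers JNK, was higher by 0.53, and Rasa2, a RAS GTPase-activating protein, was lower at -0.61, a call lost after cyclic loess (-0.13, limma adjusted p = 0.40). Dusp6, the ERK phosphatase that is a standard readout of ERK activity, stood at 0.06 with SCF and 0.83 without SCF. As deposited it was not called (limma adjusted p = 0.13). After median centring it was called higher by 0.57 (limma adjusted p = 0.022). It was not called after cyclic loess or quantile normalization (limma adjusted p = 0.074 and 0.056). Medians were 0.00 with SCF and 0.46 without SCF, beside -0.14 and -0.08 over all genes. The counts depended on scaling, with 4 higher and 0 lower after cyclic loess and 5 and 1 after median centring. Of all 6404 genes, 1628 were higher and 1263 lower after cyclic loess, and 1720 and 1302 after median centring. All Sprouty genes of the list were outside the table and were not analysed here.

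In the ETS family Etv5 stood apart by size. Of 12 genes in the table, out of 21 listed, 3 were higher and 2 were lower in D816V cells, near the shares over all genes of 17.9% and 24.7%, and Etv5 was the 1 that reached 2-fold. Etv3, which encodes a repressor, was higher by 0.52 and Fli1, a hematopoietic activator, by 0.44. Elk4, which encodes a ternary complex factor that ERK phosphorylates at early gene promoters, was lower at -0.71, and Etv6, a repressor needed in hematopoiesis, at -0.49. The call of Etv6 was lost after cyclic loess (limma adjusted p = 0.073). The list's median difference was -0.23 with SCF and -0.09 without SCF. Etv1 and Etv4, the other PEA3 group genes, were outside the table and were not analysed here.

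Among G1 genes Ccnd1 was likewise the 1 that reached 2-fold between the lines. Of 17 in the table, out of 21 listed, 4 were higher, 4 were lower and 9 were not called, near the shares over all genes of 17.9% and 24.7%. Ccnd2, which encodes cyclin D2 and was read by 7 probe sets, was higher by 0.58, but at 0.24 after cyclic loess it was not called (limma adjusted p = 0.22). Ccne1, which encodes cyclin E1, was higher by 0.63, and so were the CDK inhibitor genes Cdkn2d and Cdkn1a, by 0.86 and 0.56. Cdk4, a partner of cyclin D, was lower at -0.47, Cdk2, a partner of cyclin E, at -0.52, and E2f2, an activator of S phase genes, at -0.38. Medians were 0.09 with SCF and -0.19 without SCF, and after cyclic loess 4 were higher and 2 lower. The lower calls of Cdk4, Cdk2 and E2f2 were lost there, with limma adjusted p = 0.095, 0.11 and 0.28. That of Cdk2 was also lost after quantile normalization, and that of E2f2 under both other scalings.

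**Figure D3:**
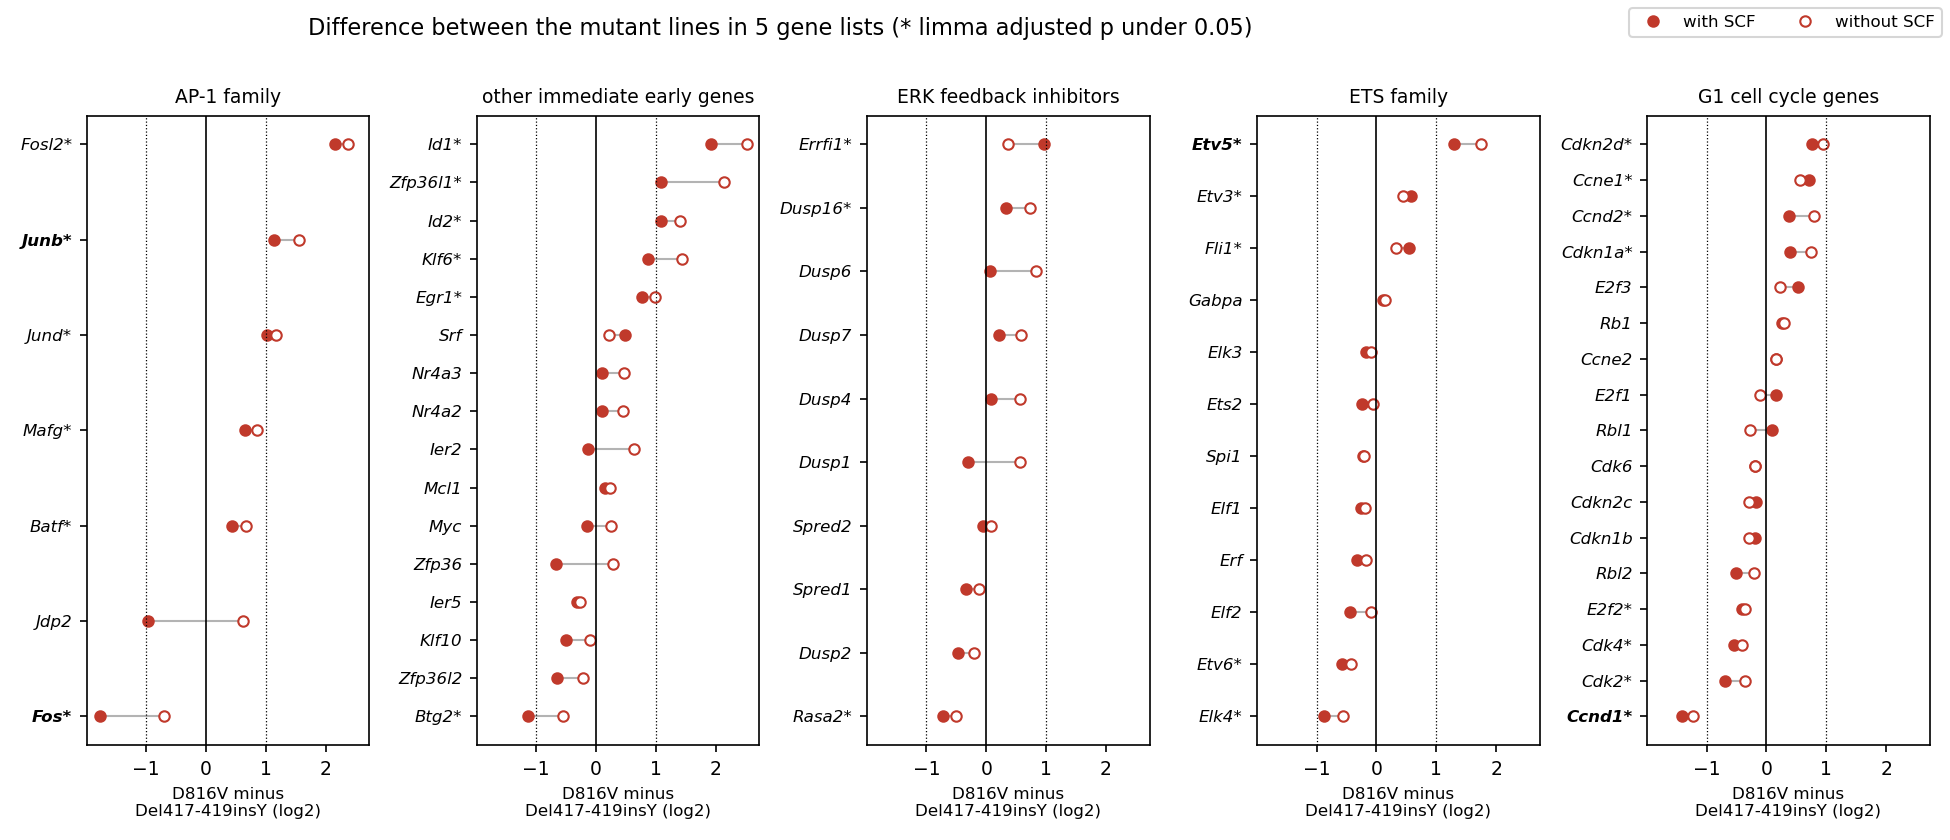
Difference of D816V minus Del417-419insY (log2) with SCF (filled) and without SCF (open) for each gene of 5 lists that is in the table, 1 row per gene, ordered by the mean of both; dotted lines mark 2-fold and an asterisk a limma adjusted p under 0.05. Junb lies on the higher side with most AP-1 genes and Fos at the lower end, Etv5 leads the ETS genes, and Ccnd1 is at the lower end of the G1 genes; Egr1 was on the lower side (-0.57) after cyclic loess.

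In the path from KIT to ERK, 3 of the 22 genes in the table, out of 41 listed, were higher in D816V cells, 5 were lower and 14 were not called, beside 17.9% and 24.7% of all genes. Rasgrp2, a guanine nucleotide exchange factor that acts mainly on RAP1, was lower at -2.65 (SE 0.13, limma adjusted p = 0.00032). Kit was lower at -1.42, with -1.77 with SCF and -1.07 without SCF. After cyclic loess it stood at -0.81, and whether its 2 probe sets read the retroviral constructs was not tested. Rras, a RAS-related GTPase, was higher by 0.96. Nf1, which encodes the RAS GTPase-activating protein neurofibromin, was not called and stood at -1.22 with SCF and -0.12 without SCF. The list's medians were -0.19 with SCF and -0.02 without SCF. No value here reads ERK phosphorylation.

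The JNK and p38 pathways can also switch on Fos and Junb. Of 17 such genes in the table, out of 22 listed, 4 were higher in D816V cells, 3 were lower and 10 were not called, beside 17.9% and 24.7% of all genes. After cyclic loess and after median centring 6 were higher and 3 lower, and after quantile normalization 6 and 4. Their medians were -0.15 with SCF and -0.05 without SCF. Map3k8, which encodes the MEK-activating kinase TPL2, was higher by 1.86 (SE 0.13, limma adjusted p = 0.00087). It was placed in this list and not in that of the path from KIT to ERK, although MEK activates ERK. Mapk8, which encodes JNK1, was lower at -0.93 and Mapk12, which encodes p38 gamma, at -0.92. Gadd45a, a stress gene upstream of both pathways, was not called and stood at -1.26 with SCF and -0.05 without SCF.

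Of 7 heat shock and handling stress genes in the table, out of 14 listed, 0 were called in the limma fit as deposited, beside 17.9% higher and 24.7% lower of all genes. After cyclic loess 3 were higher and 1 lower, and after median centring 2 were higher. Of all 6404 genes, 1628 were higher and 1263 lower after cyclic loess, and 1720 and 1302 after median centring. Hmox1, which encodes the stress-induced heme oxygenase 1, was the 1 gene of the list that reached 2-fold between 2 arrays. Its difference between the lines was 0.15 with SCF and 1.14 without SCF. The part of handling stress in the values of Fos and Junb was not tested.

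Lineage markers are to be read against the same shares, 17.9% higher and 24.7% lower of all genes. Of 11 mast cell markers 9 were higher in D816V cells and none was lower, with median values of 0.01 with SCF and 0.66 without SCF in D816V cells, and -1.05 with SCF and -0.99 without SCF in Del417-419insY cells. All 4 erythroid markers were lower in D816V cells, with medians of -0.94 with SCF and -1.71 without SCF, against 0.34 with SCF and 0.18 without SCF in Del417-419insY cells, although the call of Epor was lost after median centring (limma adjusted p = 0.084). Of 4 megakaryocyte markers 1 was higher and 3 were lower. Among the other sets, 1 progenitor marker was higher and 5 lower of 6, 1 higher and 1 lower of 5 for granulocytes and monocytes, 1 and 1 of 2 for lymphoid cells, and 0 and 1 of 3 for fibroblasts and endothelium. The lower call of the progenitor marker Lmo2 was lost under all 3 scalings (lowest limma adjusted p = 0.079). The values have no true zero, so no marker can be called absent. The part of a differing cell composition in the differences of the 4 genes was not tested, and in these bulk cultures fewer cells of a type and less RNA per cell cannot be told apart.

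Comparing arrays with and without SCF asks what added ligand had changed in each line after 48 h. A brief response within minutes would not be seen at that time, and no earlier time was analysed here. None of the 4 genes reached 2-fold in either line, where 1.64% of all genes did in D816V cells and 0.874% in Del417-419insY cells. Fos came nearest: in D816V cells it was at -1.86 with SCF and -0.89 without SCF, a difference of -0.97, or 1.96-fold lower, and of -0.64 after quantile normalization. Etv5 and Ccnd1 had the same sign in both lines, and Fos and Junb had opposite signs, which was not counted over all genes.

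Few genes responded as far as Fos did in D816V cells: 114 of 6404, or 1.78%, differed by at least as much in either direction. In Del417-419insY cells its SCF difference was 0.10, and 69.8% of genes differed by at least that much. The SCF difference in D816V minus that in Del417-419insY was -1.07 for Fos, a gap that 80 genes (1.25%) matched or exceeded. With 1 array per group that gap has no test. Mast cell markers moved on the same pair of arrays, since 7 of 11 were 2-fold or more lower with SCF in D816V cells and 2 of 11 in Del417-419insY cells. Of all 6404 genes, 84 were 2-fold or more lower with SCF in D816V cells and 35 in Del417-419insY cells. On these arrays the SCF difference of Jdp2 was -1.36 in D816V cells and 0.23 in Del417-419insY cells, and that of the stress gene Hmox1 was -1.69 in D816V cells and -0.70 in Del417-419insY cells. Whether these values share a source with that of Fos was not tested.

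Junb differed by -0.20 with SCF in D816V cells and by 0.21 in Del417-419insY cells, amounts that 50.6% and 41.1% of genes matched or exceeded. Etv5 differed by 0.04 in D816V cells and by 0.49 in Del417-419insY cells, and 8.87% of genes differed by at least the second amount. The gaps between the lines were -0.42 for Junb, -0.45 for Etv5 and -0.18 for Ccnd1, below 0 for these genes as for Fos in the deposited values. For Ccnd1 the order of the lines depended on the processing, with SCF differences of -0.36 in D816V cells and -0.40 in Del417-419insY cells after cyclic loess, and of -0.26 and -0.41 in the same order of lines after quantile normalization. Etv5 stood at 0.33 in D816V cells after cyclic loess. Over all genes the median SCF difference was -0.05 in D816V cells and 0.03 in Del417-419insY cells.

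The SCF difference of Ccnd1 depended on the probe set. As gene means it was -0.57 in D816V cells and -0.39 in Del417-419insY cells. Probe set 1417419_at gave -0.94 and -1.11 in the same order of lines, 1417420_at gave -0.61 and -0.17, and 1448698_at gave -0.18 and 0.11. Only the first was 2-fold or more lower, in Del417-419insY cells, although all 3 read the same gene and gave nearly equal differences between the mutants.

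The limma fit called none of the 4 genes for SCF and 0 of all 6404 genes, or 0%. At an unadjusted p under 0.05 it had 1186 genes, and the smallest adjusted p was 0.089. Over both lines the SCF differences were -0.48 for Ccnd1 (SE 0.12, limma adjusted p = 0.16), -0.44 for Fos (SE 0.26, limma adjusted p = 0.42), 0.26 for Etv5 (SE 0.15, limma adjusted p = 0.39) and 0.01 for Junb (SE 0.15, limma adjusted p = 0.99). With every gene read by its probe set of highest mean, Ccnd1 was called at -1.02 (limma adjusted p = 0.0095). For Ccnd1 that probe set is 1417419_at, and the values do not show which of its probe sets is the brightest. The swap applied to all genes with several probe sets, so the adjustment changed as well.

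**Figure D4:**
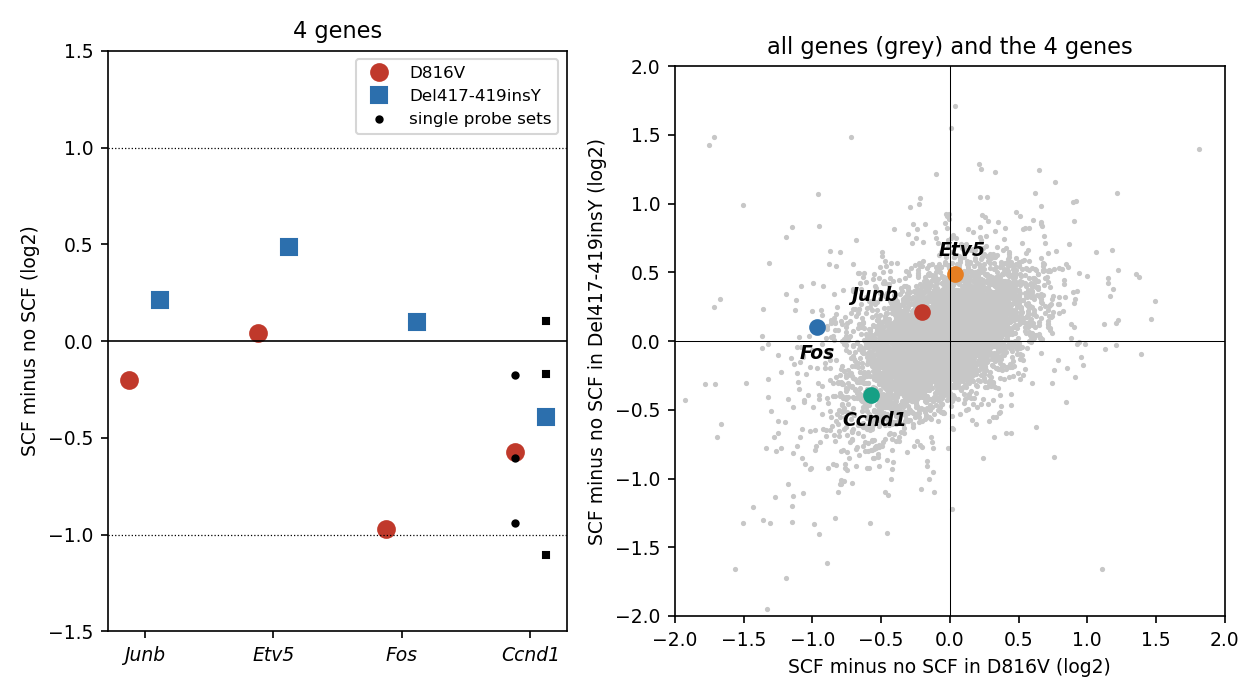
Left, difference of SCF minus no SCF (log2) for the 4 genes in D816V cells (red circles) and Del417-419insY cells (blue squares), with black marks for the 3 probe sets of Ccnd1 and dotted lines at 2-fold; right, the same differences in D816V cells (horizontal) against Del417-419insY cells (vertical) for all genes in grey, 6 of which lie outside the axes. Fos lies at -0.97 and 0.10, away from the main cloud, and the Ccnd1 probe sets spread from -1.11 to 0.11 in Del417-419insY cells.

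The genes most like each of the 4 were found by the Euclidean distance between profiles over the 4 arrays, each centred on its own mean. Nearest to Junb were Lgals3bp, Cpne2 and 1600014C10Rik, at distances of 0.09, 0.09 and 0.10. Nearest to Etv5 were Dusp3, Lgals3 and Rgcc, at 0.08, 0.10 and 0.12. Nearest to Ccnd1 were Ugcg, 2700038G22Rik and Cnnm4, at 0.11, 0.16 and 0.16. Nearest to Fos were Imp4 at 0.10, Angpt1 at 0.23 and Rbbp6 at 0.23. Imp4 differed between the lines by -1.69 with SCF and -0.77 without SCF, close to the values of Fos.

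Among the 4 genes Junb was the 23rd nearest gene to Etv5 at a distance of 0.31, and Ccnd1 the 46th nearest to Fos at 0.45. Counted from the other gene of each pair, Etv5 was the 50th nearest to Junb and Fos the 88th nearest to Ccnd1. Across the pairs the distances lay between 2.65 for Fos and Junb and 2.94 for Etv5 and Ccnd1. These distances describe 4 arrays, 2 of each line, and have no test.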

How the data were processed

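RNA of 4 EML cultures was hybridised to Affymetrix mouse arrays, 1 array per group, per the labels' protocols. The deposited log2 values were made by the authors with RMA, per the submitters' processing notes. No source used here gives the version or the log base, which is read as 2 since RMA works in log2, and the zero of each probe set is unstated. Of the 45101 probe sets that the series' design text gives, 10861 are in the table, and how they were selected is not stated in what was used here.

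Genes were named by the platform annotation, with 1 symbol for 9633 probe sets, several for 264 and none for 964, and symbols were checked by gene ID against RefSeq of GRCm38.p6. A gene's value was the mean of its probe sets, giving 6404 genes. An additive model of genotype and SCF was fitted to the 4 arrays with limma 3.58.1 (lmFit, eBayes; R 4.3.3), leaving 1 residual degree of freedom. Two-sided p-values were adjusted by Benjamini-Hochberg across the 6404 genes, with a threshold of 0.05. Differences between 2 arrays were given without a test and counted at 2-fold.

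The 4 genes, the 8 gene lists and the 7 marker sets were chosen with earlier results of these data known. The rule named, per list, up to 8 genes that reached 2-fold between 2 arrays, or the largest difference where none did. Genes named outside it (Mafg, Batf, Egr1, Myc, Dusp16, Rasa2, Dusp6, Etv3, Fli1, Elk4, Etv6, the G1 genes other than Ccnd1, and the markers Epor and Lmo2) were chosen after their values were seen. Alternatives were cyclic loess, quantile normalization, median centring, the probe set of highest mean, single probe sets, no SCF term, a trend or robust prior and a filter at the 25th percentile.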

Additional observations from a re-analysis of the deposited data

Results flagged for a closer look

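Fos and Junb had SCF differences of opposite sign in the 2 lines. For Fos the difference of SCF minus no SCF was -0.97 in D816V cells and 0.10 in Del417-419insY cells. For Junb it was -0.20 in D816V cells and 0.21 in Del417-419insY cells. For Junb, 50.6% of all genes differed by at least as much in D816V cells and 41.1% in Del417-419insY cells. For Fos these shares were 1.78% and 69.8%. The medians over all genes also had opposite signs, at -0.05 in D816V cells and 0.03 in Del417-419insY cells. How many genes had opposite signs was not counted. Each value comes from 1 array with and 1 without SCF, and the difference between the lines was not tested.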

How the results depend on the processing

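The differences between the mutants kept their direction and an adjusted p under 0.05 in limma for all 4 genes under the alternatives that held them. Over these Fos ranged from -1.24 to -0.81 (highest adjusted p = 0.030), Junb from 1.35 to 1.47, Etv5 from 1.52 to 1.94 and Ccnd1 from -1.32 to -1.02. The 25th percentile filter removed Fos, Etv5 and Ccnd1 and gave no value for them. Values lie around unstated levels, so neither this filter nor the probe set of highest mean says how strongly a gene is expressed. With SCF, Ccnd1 stood at -0.999 after cyclic loess, just under 2-fold. With the probe set of highest mean its SCF difference was -1.02 over both lines, then called, and -1.11 in Del417-419insY cells. The fit on single probe sets for SCF was added after the data were seen. There 1417419_at of Ccnd1 was called (adjusted p = 0.014), and its other probe sets were not (0.22 and 0.92).

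Counts over all genes moved more. For genotype there were 690 higher and 913 lower genes without the SCF term, and 1810 and 2855 probe sets in the fit on single probe sets, which tests more features. For SCF the fit called 13 higher and 29 lower after cyclic loess, 1 and 1 after quantile normalization, 113 and 143 after median centring, and 44 and 218 with the probe set of highest mean. At 1.5-fold, D816V against Del417-419insY gave 844 higher and 1307 lower with SCF and 783 and 809 without SCF, and SCF gave 163 and 413 in D816V cells and 137 and 183 in Del417-419insY cells. At 2-fold, SCF in D816V cells gave 34 higher and 50 lower after cyclic loess, 32 higher after centring, 35 lower after quantile normalization and 145 lower with the probe set of highest mean. In Del417-419insY cells it gave 41 higher after quantile normalization and 96 lower with the probe set of highest mean. The cause was not tested, apart from the looser fold and the added features.

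The planned background correction and slide block were not run, since no scanner values or scan dates were used, and signal over background is not known here. No array was left out, since the additive model then has no residual degree of freedom.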
